A study of Arabidopsis thaliana with 70 samples.

Results

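The genes described here are 48 Arabidopsis genes for intracellular immune receptors of the NLR type and their truncated TIR relatives, picked by gene ID from 33597 genes in the expression table. By the class of their N-terminal part, 32 are TIR-type, 10 are CC-type and 6 are RPW8-type. Gene symbols are those of the RefSeq annotation, and a gene without a symbol there is called by its ID.

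The RNA-seq data compared wild type (WT) with rdd, plants mutant in ROS1, DML2 and also DML3, which encode enzymes that remove DNA methylation, after exposure to flg22, a peptide of bacterial flagellin that plants sense at the cell surface. Seedlings of each genotype, 10 days old, received 100 nM flg22 and were taken at 0, 1 and 3 h, with 3 libraries per group. Leaves of plants 4 weeks old were infiltrated by hand with water or with 100 nM flg22 for 24 h, with 3 libraries per group. A further set of leaves of the same age had the same water or flg22 treatment for 24 h and then received hrcC, a Pseudomonas syringae mutant that lacks a working type III secretion system, for 1 h, with 2 libraries per group. These are 38 libraries in 14 groups. Seedlings had no group kept without flg22 for 1 or 3 h, so the peptide and the time since 0 h cannot be told apart there. The labels do not give the alleles or how many plants were pooled, so p-values measure the spread between libraries.

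Values were taken to be FPKM, a unit inferred here since no file header names one: fragments adjusted for the length of the gene and the size of the library, and depth is unknown. The libraries summed to between 904625 and 1231239 FPKM. Some libraries stood apart. In rdd seedlings at 3 h, library 2 had 18555 genes above 0 and 2.85% of its FPKM on organelle genes, against 20734 to 22032 genes and 0.223% to 0.809% in the other 17 seedling libraries. Organelle genes made up 5.07% to 5.54% of the FPKM in leaf libraries 1 and 2 after water and 3.03% to 3.49% after flg22, but 0.073% to 0.098% in the 4 leaf libraries numbered 3 and 0.082% to 0.117% in the 8 libraries with hrcC. The root markers PYK10, TIP2;3 and AT4G12520 summed to between 687 and 2000 FPKM in seedlings and to at most 0.2 FPKM in leaves, and the flg22-response gene FRK1 rose from at most 1.07 FPKM in WT seedlings at 0 h to between 95.1 and 132 FPKM at 3 h. RNA of ROS1 (symbol DML1 in RefSeq) was not lower in rdd leaves, with 27.7 ± 4.49 FPKM (SD, n = 3) in rdd and 19.3 ± 1.4 (n = 3) in WT after water. In leaves given hrcC it was higher in rdd, as given with the genotype comparisons. DML2 RNA was 0.93 FPKM on average in rdd and 0.857 in WT seedlings at 0 h. DML3 RNA was 0.527 ± 0.158 FPKM (n = 3) in rdd and 2.12 ± 0.515 (n = 3) in WT leaves after water. RNA level does not show whether a protein is made, and bisulfite libraries of the study were not analysed here.

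NLR proteins sit inside the cell and detect pathogen effectors, either by binding them or by guarding host proteins that effectors modify. TIR-type sensors signal through EDS1 with PAD4 or SAG101 to helper NLRs with an RPW8-like N-terminus, among them the ADR1 family, while some CC-type sensors such as ZAR1 form a membrane channel themselves. Too much NLR protein causes autoimmunity and stunting, and many of these genes lie in clusters rich in repeats and transposons.

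Levels of the genes spanned a wide range, and most were higher in leaves after water than in seedlings at 0 h. Averaged over the 14 groups, TIR (AT1G72930), a small protein made of little more than a TIR domain, was highest at 252 FPKM. ZAR1, a CC-type sensor that watches receptor-like pseudokinases, followed at 148 FPKM, and RLM3, a TIR protein linked to resistance to necrotrophic fungi, at 139 FPKM. At the low end, AT4G16920, RLM1 (linked to blackleg resistance) and ADR1-L3, a short relative of the ADR1 helpers, stayed under 1 FPKM in every library. Their highest values were 0.64, 0.13 and 0.06 FPKM, and ADR1-L3 was listed at 0 in 34 of the 38 libraries. Genes entered a test when they reached 1 FPKM in at least 3 libraries of a set, or 2 in the hrcC set, which 43 of the 48 did in seedlings and 45 in each leaf set.

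**Figure D1:**
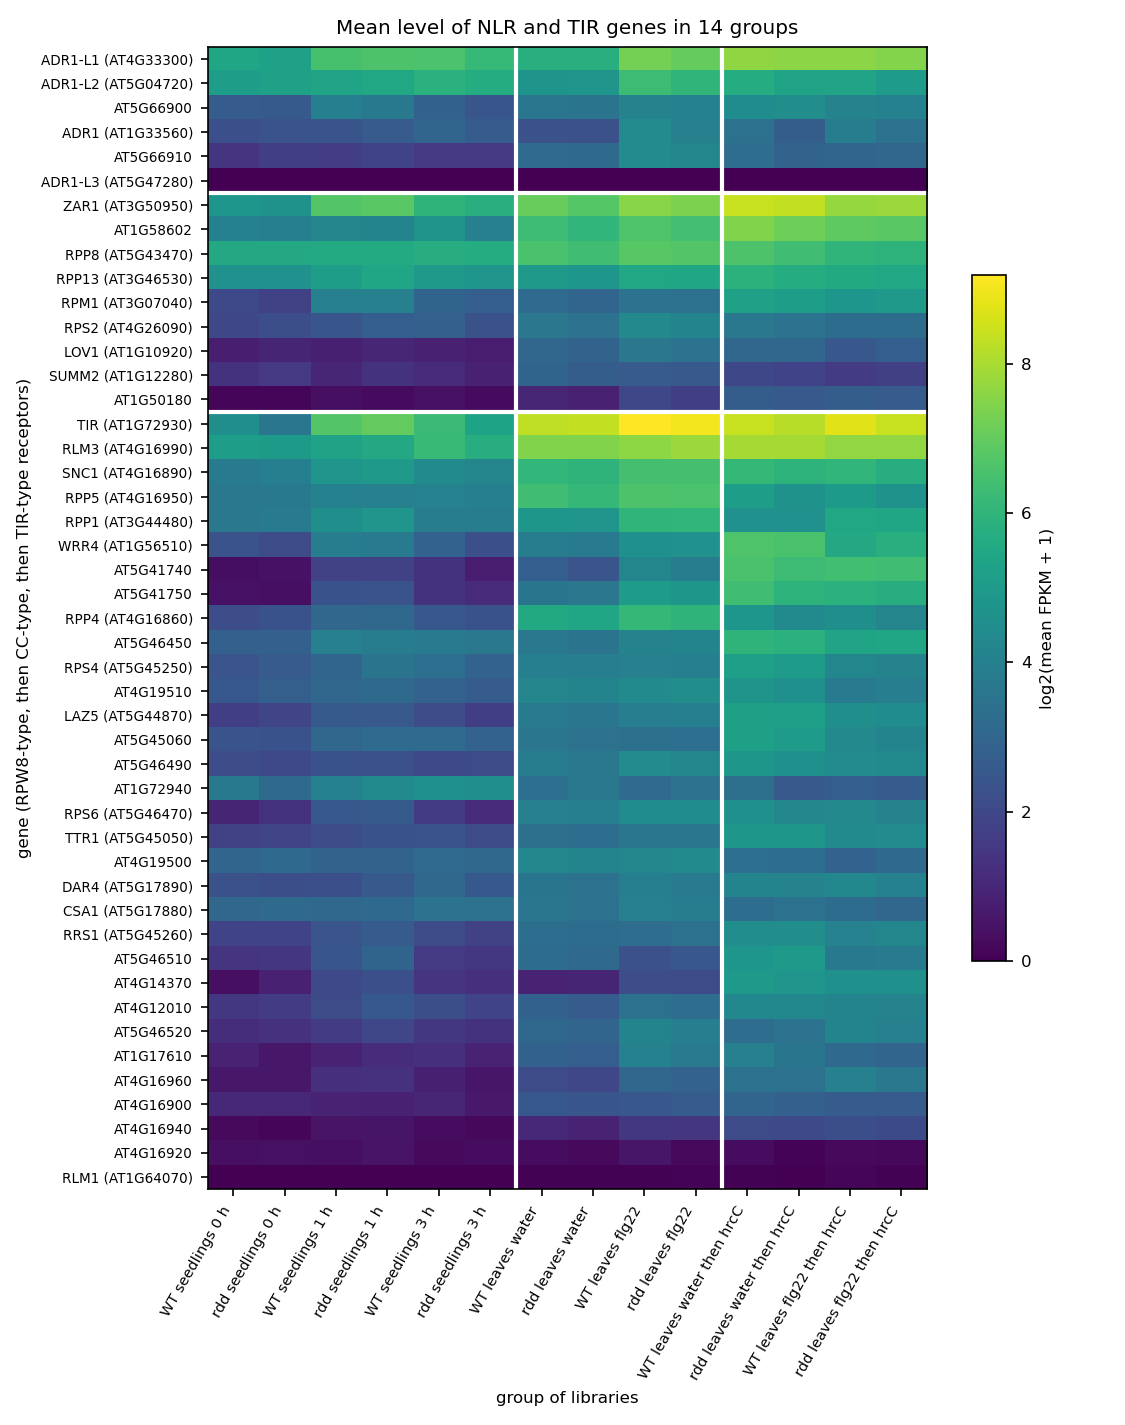
Mean level of the receptor genes (rows, grouped by class and ordered by level, with 1 of the 48 not shown) in each of the 14 groups (columns), as log2 of mean FPKM + 1. Most rows are darkest in the 6 seedling groups, and 24 of the 45 genes that reached 1 FPKM in a leaf set are brightest in a group given water and then hrcC.

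Seedlings and leaves differ in age, growth medium and treatment, so their levels are set side by side without a test. In WT, 33 of 43 genes (76.7%) were at least 2-fold higher, on the FPKM + 1 scale, in water-treated leaves than in seedlings at 0 h with no overlap of libraries, and none was lower by that rule. The same rule took 23.3% of all genes as higher. The median log2 difference was 1.54 for the receptor genes and 0.20 for all genes. In rdd, 31 of 42 genes were higher, against 21% of all genes.

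RPP5 and RPP4, TIR-type sensors of downy mildew from one cluster, show this contrast. RPP4 measured 3.23, 3.75 and 3.52 FPKM in the 3 WT seedling libraries at 0 h and 39.9, 40.0 and 60.9 FPKM in the water-treated WT leaves. RPP5 measured 9.09, 12.0 and 13.9 FPKM in those seedlings and 74.3, 73.5 and 93.9 FPKM in those leaves. In neither gene did the groups overlap. AT1G72940, a truncated TIR gene, had its highest group mean in seedlings (WT at 3 h), the only gene of the 45 to do so. ADR1-L2 had its lowest group mean in WT leaves after water, at 26.1 FPKM. CSA1 and AT4G19500 had their lowest group means in leaves given flg22 then hrcC.

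The first hour of flg22 in seedlings was marked by higher RNA of many receptor genes. In WT, limma called 17 of the 43 genes tested higher and 0 lower (Benjamini-Hochberg adjusted p under 0.05 over 18886 genes), where 9.62% of all genes were called higher and 7.64% lower. At an unadjusted p under 0.05, 26 of the 43 passed. That threshold is looser than the one behind the shares of all genes, so the count cannot be set against them. The median log2 fold change of the genes was 0.50, against -0.08 for all genes. By class, 13 of 29 TIR-type, 2 of 9 CC-type and 2 of 5 RPW8-type genes rose. In whole seedlings, fewer cells of a type and less RNA per cell cannot be told apart.

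Both CC-type genes that rose encode well-studied sensors. RPM1 guards RIN4, a membrane protein that several effectors attack, and measured 2.42, 3.08 and 3.61 FPKM at 0 h and 17.9, 15.2 and 12.5 FPKM at 1 h in WT. ZAR1 measured 20.5, 31.7 and 29.0 FPKM at 0 h and 111, 114 and 89.9 FPKM at 1 h. All 1 h libraries stood above all 0 h libraries in both genes. The log2 fold changes were 2.00 ± 0.21 (SE, adjusted p = 1.4e-06, limma) for RPM1 and 1.93 ± 0.17 (adjusted p = 2.3e-07) for ZAR1. RPS2, which also guards RIN4, did not pass at 1 h.

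Among TIR-type genes, TIR (AT1G72930) measured 17.4, 22.2 and 28.6 FPKM at 0 h and 123, 129 and 64.1 FPKM at 1 h in WT, a log2 change of 2.12 ± 0.38 (adjusted p = 0.00055, limma). WRR4, a TIR-type sensor for white rust, measured 3.63, 4.26 and 4.25 FPKM at 0 h and 14.2, 13.1 and 13.0 FPKM at 1 h, a change of 1.52 ± 0.24 (adjusted p = 0.00017). The groups did not overlap in either gene, and the third 1 h library was the low one for TIR but not for WRR4. AT4G14370 and the neighbours AT5G41740 and AT5G41750 were under 1 FPKM in every WT library at 0 h. AT5G41750 measured 0.17, 0.50 and 0.39 FPKM at 0 h and 4.47, 3.81 and 3.67 FPKM at 1 h, and its log2 change was 1.89 ± 0.20 (adjusted p = 1.4e-06). RPS6, which recognises the Pseudomonas effector HopA1, changed by 1.57 ± 0.24 (adjusted p = 0.00012), and SNC1, a gene of the RPP4 and RPP5 cluster whose gain of function causes autoimmunity, by 1.03 ± 0.16 (adjusted p = 1e-04).

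Of the helpers, ADR1-L1 rose from 38.3, 40.0 and 45.9 FPKM at 0 h to 93.5, 98.3 and 80.7 FPKM at 1 h in WT, by 1.11 ± 0.14 on the log2 scale (adjusted p = 9.5e-06, limma). AT5G66900, of the RPW8-type class, rose by 1.29 ± 0.24 (adjusted p = 7e-04). ADR1 measured 3.51, 3.15 and 4.47 FPKM at 0 h and 5.19, 3.48 and 4.12 FPKM at 1 h, and did not pass.

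In rdd, 24 genes rose within 1 h and 0 fell, where 10.2% of all genes were called higher and 6.58% lower, with a median of 0.71 for the receptor genes and -0.05 for all genes. All 17 genes called in WT were among the 24, which is 70.8% of the rdd list. The largest change was again that of TIR (AT1G72930), from 4.43, 16.9 and 12.5 FPKM to 94.0, 161 and 125 FPKM, or 3.51 ± 0.38 on the log2 scale (adjusted p = 2.3e-06, limma). The 7 genes called in rdd and not in WT were RPS4, RRS1, RPP13, AT5G45060, AT4G12010, AT1G72940 and AT5G46520. The difference between the genotypes in this response was tested for every gene and is given with the genotype comparisons. Of the calls, 14 of 17 in WT and 17 of 24 in rdd held whichever single library was left out.

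**Figure D2:**
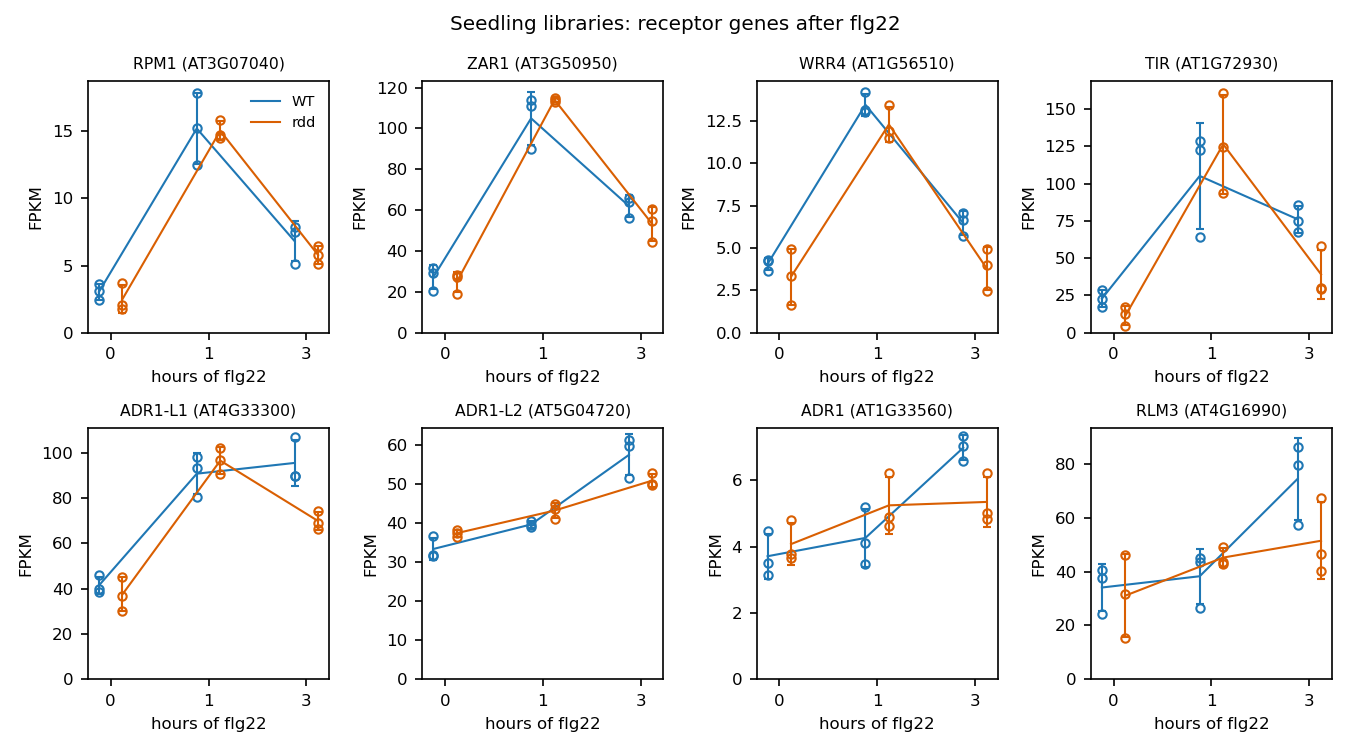
FPKM (vertical axes, starting at 0) of 8 receptor genes in seedlings at 0, 1 and 3 h of flg22 for WT and rdd; open circles are libraries, lines join group means and bars are SD (n = 3). RPM1, ZAR1, WRR4 and TIR peak at 1 h in both genotypes, and ADR1-L2, ADR1 and RLM3 have their highest WT mean at 3 h.

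In WT seedlings at 3 h, several sensors had fallen from their 1 h level. Rises since 1 h were no more frequent among the receptor genes than among all genes. Against 0 h, 17 of 43 genes were higher and 0 lower, where 12.1% of all genes were called higher and 6.81% lower (median 0.56 for the receptor genes, 0.08 for all genes). Between 1 and 3 h, 10 genes fell and 4 rose, where 6.77% of all genes fell and 11.9% rose. ZAR1, at 65.7, 64.2 and 56.1 FPKM by 3 h, fell by 0.75 on the log2 scale from 1 h (SE 0.17, adjusted p = 0.0062, limma). RPM1, at 7.51, 7.84 and 5.10 FPKM, fell by 1.06 (SE 0.21, adjusted p = 0.0019). WRR4, RPS6, RPP1, SNC1, AT5G66900, AT5G41750, AT5G46510 and AT4G14370 were the other 8 genes that fell.

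The 4 genes that rose between 1 and 3 h in WT were ADR1, ADR1-L2, DAR4 and RLM3. As 4 of 43 tested, they are no larger a share than the 11.9% of all genes that rose. ADR1-L2 measured 39.0, 39.5 and 40.6 FPKM at 1 h and 61.3, 59.9 and 51.5 FPKM at 3 h, a log2 change of 0.52 ± 0.10 (adjusted p = 0.0014, limma). ADR1 reached 6.58, 7.33 and 7.05 FPKM at 3 h, a change of 0.61 ± 0.17 from 1 h (adjusted p = 0.02). DAR4, also known as CHS3, which works as a pair with its neighbour CSA1, changed by 0.88 ± 0.24 (adjusted p = 0.016), and RLM3 by 0.96 ± 0.32 (adjusted p = 0.045). The count of 14 changed genes dropped to 8 without WT 1 h library 1 and without WT 3 h library 3, and to 9 without WT 1 h library 2 and without WT 3 h library 2. ADR1-L2, ZAR1, RPM1, WRR4, AT5G66900 and AT5G41750 kept their calls in each of these, whereas ADR1, DAR4 and RLM3 each lost theirs in at least 2 of the 6 fits that left out a library.

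In rdd, 8 genes were higher at 3 h than at 0 h and 0 were lower, where 8.04% of all genes were called higher and 8.03% lower (median 0.20 for the receptor genes, -0.14 for all genes). All 8 were also called in WT, and they make up 47.1% of the WT list. Fitted with only these 2 groups, the count was 3. From 1 to 3 h, 19 genes fell and 0 rose in rdd, where 7.26% of all genes fell and 4.16% rose (median -0.50 for the receptor genes, -0.12 for all genes). The largest falls were those of TIR (AT1G72930) by 1.71 (SE 0.38, adjusted p = 0.0067, limma), WRR4 by 1.51 (SE 0.24, adjusted p = 0.00043) and AT5G46510 by 1.5 (SE 0.27, adjusted p = 0.0014). The 19 became 12 without rdd 1 h library 2. Without rdd 3 h library 2, which stood apart, 8 genes were called at 3 h against 0 h and 14 fell from 1 to 3 h.

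Genes that work with NLR proteins were followed as separate lists. Of 14 partners and guarded proteins, 11 were called higher in WT at 1 h, with a median log2 change of 1.22, and 11 in rdd, with a median of 1.41. None of the 14 was called lower. Of all genes, 9.62% were called higher in WT at 1 h and 10.2% in rdd, and 7.64% and 6.58% were called lower. EDS1, the hub of TIR-type signalling, went from 7.27 ± 2.13 to 18.4 ± 4.94 FPKM (SD, n = 3) in WT, a log2 change of 1.23 ± 0.24 (adjusted p = 0.00098, limma). PAD4 went from 7.01 ± 0.476 to 22.4 ± 1.29 FPKM, a change of 1.55 ± 0.15 (adjusted p = 4.9e-07), and RIN4 from 42.9 ± 1.47 to 69.0 ± 2.5 FPKM, a change of 0.67 ± 0.14 (adjusted p = 0.0024). Among chaperones of NLR folding, HSP90.1 changed by 5.17 ± 0.39 (adjusted p = 3e-08) and SGT1A by 2.72 ± 0.12 (adjusted p = 5.5e-11). SGT1B, the close relative of SGT1A, did not pass. Of 6 negative regulators, 1 rose in WT at 1 h, the membrane-bound copine BON1 (1.65 ± 0.17, adjusted p = 8.6e-07), and 2 in rdd. A list of 6 genes is too short to set against the shares of all genes. Of the root markers, AT4G12520 fell by 1.18 at 1 h and by 2.63 at 3 h in WT, and the summed root markers ranged from 1390 to 1740 FPKM at 0 h and from 687 to 869 FPKM at 3 h. Their part in the receptor changes was not tested.

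In leaves 24 h after flg22, the receptor genes that rose included the helpers. In WT, 12 of 45 genes tested rose and 0 fell over 18164 genes, of which 14.8% were called higher and 8.3% lower. The median log2 fold change of the receptor genes was 0.50, against 0.10 for all genes. By class, 5 of 5 RPW8-type genes tested rose (ADR1-L3 was not tested), with 6 of 30 TIR-type and 1 of 10 CC-type genes. In rdd, 10 genes rose and 0 fell, where 12.8% of all genes were called higher and 3.72% lower (median 0.55 against 0.18). Those 10 were all in the WT list, and AT1G17610 (also called CHS1) and AT1G50180 passed in WT and not in rdd, a difference that did not pass the interaction test given with the genotype comparisons.

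ADR1 measured 3.24, 3.42 and 5.0 FPKM after water and 19.8, 13.5 and 29.1 FPKM after flg22 in WT, and 2.72, 3.25 and 5.74 against 14.3, 16.2 and 14.6 FPKM in rdd. Every flg22 library was above every water library in both genotypes. The log2 changes were 2.11 ± 0.29 (adjusted p = 0.0011, limma) in WT and 1.75 ± 0.29 (adjusted p = 0.0047) in rdd. ADR1-L2 measured 28.6, 26.9 and 22.9 FPKM after water and 91.6, 73.0 and 70.2 FPKM after flg22 in WT, a change of 1.54 ± 0.20 (adjusted p = 0.00069). ADR1-L1 measured 52.5, 49.1 and 62.1 FPKM after water and 146, 136 and 174 FPKM after flg22, a change of 1.46 ± 0.20 (adjusted p = 0.00092). The neighbours AT5G66900 and AT5G66910 changed by 0.51 ± 0.15 (adjusted p = 0.032) and 1.24 ± 0.24 (adjusted p = 0.0055) in WT.

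RPP1, a TIR-type sensor of downy mildew, measured 27.0, 28.5 and 28.1 FPKM after water and 62.8, 54.2 and 73.3 FPKM after flg22 in WT, a log2 change of 1.15 ± 0.15 (adjusted p = 0.00092, limma). In rdd it changed by 1.24 ± 0.15 (adjusted p = 0.0013). AT5G41750 went from 12.0, 9.22 and 11.8 FPKM to 32.6, 26.8 and 39.3 FPKM in WT, a change of 1.49 ± 0.22 (adjusted p = 0.0014). AT5G46520, known as VICTR for its part in small-molecule control of root growth, rose by 1.06 ± 0.26 in WT (adjusted p = 0.017) and by 0.95 ± 0.26 in rdd (adjusted p = 0.036). RPM1 and ZAR1, which rose at 1 h in seedlings, did not pass in leaves of either genotype, though ZAR1 measured 89.4, 94.7 and 208 FPKM after water and 177, 168 and 223 FPKM after flg22 in WT.

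**Figure D3:**
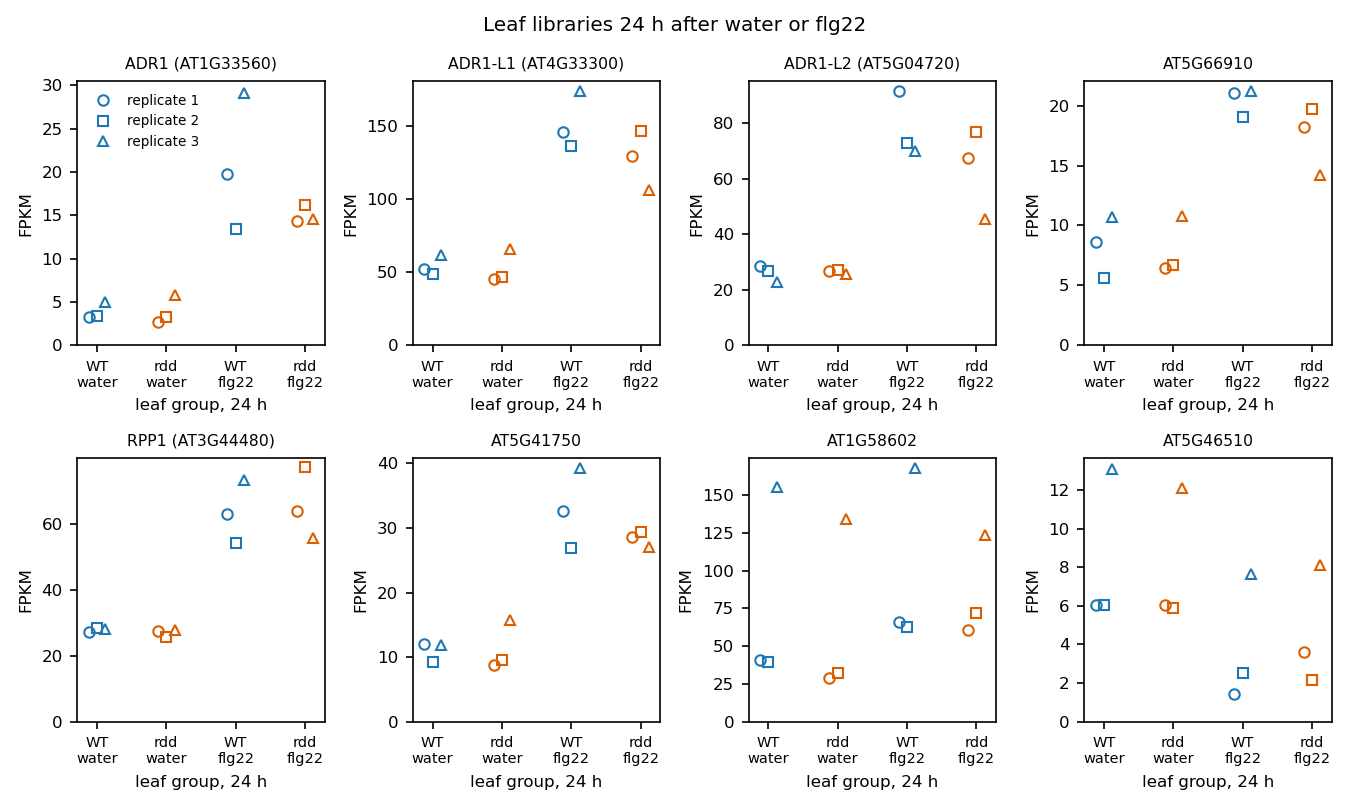
FPKM (vertical axes, starting at 0) of 8 receptor genes in each leaf library 24 h after water or flg22, with the shape giving the replicate number and the colour the genotype. The flg22 libraries lie above the water libraries for the helpers ADR1, ADR1-L1 and ADR1-L2, and the triangles (replicate 3) lie far above the rest for AT1G58602.

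The leaf libraries numbered 3 stood apart in these genes. In water-treated WT leaves, 37 of 42 genes were highest in library 3, with a median log2 excess of 0.59 over the other libraries, where 50.8% of all genes were highest there. The same held for 38 of 42 genes in rdd after water (median excess 0.71, 48.2% of all genes) and for 40 of 45 in WT after flg22 (0.43, 47.2%). In rdd after flg22 it did not, with 16 of 45 genes highest in library 3 and a median excess of 0.00, where 47.8% of all genes were. TIR (AT1G72930) measured 109, 111 and 719.9 FPKM in WT after water and 125, 106 and 733 FPKM in rdd after water. AT1G58602, of the CC-type class, measured 40.6, 39.3 and 156 FPKM in WT after water. In all 18 pairs of leaf groups and numbers, libraries with the same number deviated together across genes (r between 0.31 and 0.90). Of the 36 pairs with different numbers, 12 also had r over 0.1, up to 0.74, and the median was -0.57. Deviations of the libraries within a group depend on each other, so these r values do not show whether sharing went beyond the number. The number was also fitted as a block. The low organelle share of the libraries numbered 3 was present in all 4 groups, and its part in these differences was not tested.

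With that block, 21 genes rose and 1 fell in WT, where 29.6% of all genes rose and 17.9% fell, and 27 rose and 1 fell in rdd, where 30.4% and 10.9% did. The gene that fell in both was AT5G46510 (VICTL), a neighbour of VICTR, at -1.08 ± 0.21 in WT (adjusted p = 0.0034, limma with the replicate block) and -0.76 ± 0.21 in rdd (adjusted p = 0.02). It measured 6.05, 6.07 and 13.1 FPKM after water and 1.43, 2.54 and 7.66 FPKM after flg22 in WT, lower after flg22 within each number although the groups overlap. Blocking also brought in WRR4 at 0.71 ± 0.17 (adjusted p = 0.0094), RPP4 at 0.54 ± 0.14 (adjusted p = 0.013) and TIR (AT1G72930) at 1.47 ± 0.47 (adjusted p = 0.03) in WT. Without the 4 libraries numbered 3, 32 genes rose and 1 fell in WT, where 31.5% of all genes rose and 18.1% fell, and 38 rose and 1 fell in rdd, where 32.3% and 13.5% did. In that fit TIR (AT1G72930) changed by 2.20 ± 0.13 in WT (adjusted p = 0.00019) and 1.83 ± 0.13 in rdd (adjusted p = 4e-04).

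Other single libraries also moved the unblocked counts. The WT count of 12 was 7 without water library 1 and without water library 2, 18 without water library 3, and 6 when only the WT groups were fitted. The rdd count of 10 was 6 without water library 2, 5 without water library 1, without flg22 library 1 and without flg22 library 2, and 6 with only the rdd groups. ADR1, ADR1-L1, ADR1-L2, RPP1 and AT5G41750 kept their calls in both genotypes whichever library was left out.

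All 8 genes listed downstream of NLR signalling, most of them of the salicylic acid pathway, rose in leaves of each genotype. The median log2 change was 2.40 in WT and 1.67 in rdd. The list held CBP60G, SARD1, EDS16, EDS5, PBS3, NPR1, FMO1 and PR1 and was chosen with earlier results of these data known. Of all genes, 14.8% were called higher in WT leaves and 12.8% in rdd leaves. EDS16, the isochorismate synthase that makes the salicylic acid precursor, changed by 2.28 ± 0.27 in WT (adjusted p = 0.00049, limma), and PBS3, which acts in the next steps, by 2.42 ± 0.23 (adjusted p = 0.00018). Of the 14 partners, 7 rose in WT and 6 in rdd, with EDS1 at 26.3 ± 7.6 FPKM after water and 63.2 ± 8.91 FPKM after flg22 in WT (n = 3). The leaf mesophyll markers RBCS1A, CA1 and CAB2 summed to between 22600 and 31200 FPKM after water and between 8650 and 14500 FPKM after flg22 in WT, and 1 of the 3, CA1, was called lower. No guard cell marker of 3 passed in either genotype, and the phloem marker SUC2 was called higher in rdd (0.83). Root markers summed to at most 0.2 FPKM in every leaf library. The part of these marker changes in the receptor results was not tested.

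Many receptor genes were at their highest in leaves given hrcC after water. Of 45 genes, 24 (53.3%) had their highest group mean in a group given water and then hrcC, compared with 12.1% of 20261 genes. These libraries form a set of their own and have no test against the leaves without hrcC. In WT, 23 of 45 genes were at least 2-fold higher on the FPKM + 1 scale, with no overlap of libraries, after water and hrcC than after water alone, and 1 was lower, where 15.7% of all genes were higher and 16% lower. In rdd, 18 were higher and 2 lower, where 15.8% and 16.3% were. After flg22 and hrcC against flg22 alone, 7 were higher and 6 lower in WT, where 14.2% and 19.3% were, and 6 higher and 4 lower in rdd, where 13.7% and 20.6% were. The organelle share differed between the libraries compared, and the water libraries numbered 3 were the ones near the hrcC libraries. Against water library 3 alone, 13 genes were higher and 5 lower in WT, where 16.2% and 19.3% of all genes were, and 15 higher and 5 lower in rdd, where 16.6% and 18.6% were. Against water libraries 1 and 2 alone, 25 were higher and 1 lower in WT, where 18.5% and 17.7% of all genes were, and 24 higher and 1 lower in rdd, where 18.3% and 18.4% were. The part of the organelle share in these counts was not tested.

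WRR4 measured 101 and 98.6 FPKM after water and hrcC in WT, with 10.6, 9.65 and 19.9 FPKM after water alone. AT4G14370 measured 28.7 and 30.1 FPKM, with 1.17, 1.22 and 0.29 FPKM after water alone, and AT5G41740 measured 90.3 and 92.9 FPKM, with 4.45, 4.22 and 8.20 FPKM. All hrcC libraries lay above all water libraries in these genes. RPP5 went the other way, with 35.8 and 33.3 FPKM after water and hrcC, and was the gene that was lower in WT.

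Among leaves that all received hrcC, those pretreated with flg22 had less RNA of many sensors than those pretreated with water. In WT, 22 of 45 genes were lower and 4 higher, over 17780 genes of which 23% were called lower and 22.4% higher, and the medians were -0.35 for the receptor genes and 0.00 for all genes. By class in WT, 15 of 30 TIR-type, 7 of 10 CC-type and 0 of 5 RPW8-type genes were called lower. In rdd, 13 were lower and 2 higher, where 18.6% of all genes were lower and 22% higher (median -0.21 against 0.03). The genotypes shared 12 lower genes, 54.5% of the WT list and 92.3% of the rdd list, and both genes higher in rdd, RPP1 and ADR1, were higher in WT too. The gene called lower in rdd alone was AT5G66900, of the RPW8-type class (-0.52 ± 0.15, adjusted p = 0.029, limma). In WT it differed by -0.36 ± 0.15 and did not pass (adjusted p = 0.091).

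WRR4 measured 50.4 and 41.5 FPKM after flg22 and hrcC in WT, against 101 and 98.6 FPKM after water and hrcC, a log2 difference of -1.11 ± 0.11 (adjusted p = 0.00021, limma). RPS4, the signalling partner of the effector sensor RRS1, measured 18.5 and 16.3 FPKM against 34.6 and 35.8 FPKM, a difference of -0.98 ± 0.13 (adjusted p = 0.00075). ZAR1 measured 219 and 204 FPKM against 356 and 318 FPKM, a difference of -0.67 ± 0.10 (adjusted p = 0.0015). In each gene both flg22 libraries lay below both water libraries. In rdd the differences were -0.76 ± 0.11 for WRR4 (adjusted p = 0.0014), -0.95 ± 0.13 for RPS4 (adjusted p = 0.0011) and -0.56 ± 0.10 for ZAR1 (adjusted p = 0.0038).

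AT5G46510 was lower by 1.11 in WT and 1.12 in rdd, where it measured 14.2 and 12.0 FPKM against 32.2 and 27.0 FPKM. Its neighbour AT5G46520 moved the other way, at 15.9 and 17.7 FPKM after flg22 against 9.95 and 7.56 FPKM after water in WT, a difference of 0.88 ± 0.25 (adjusted p = 0.025, limma). RPP1 measured 45.0 and 40.8 FPKM against 25.3 and 23.2 FPKM in WT, a difference of 0.80 ± 0.09 (adjusted p = 0.00045), and 0.73 ± 0.09 in rdd (adjusted p = 0.00079). ADR1 differed by 0.43 ± 0.14 in WT (adjusted p = 0.038) and by 0.70 ± 0.14 in rdd (adjusted p = 0.0058). TIR (AT1G72930) completed the WT list of higher genes at 0.36 ± 0.09 (adjusted p = 0.015).

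**Figure D4:**
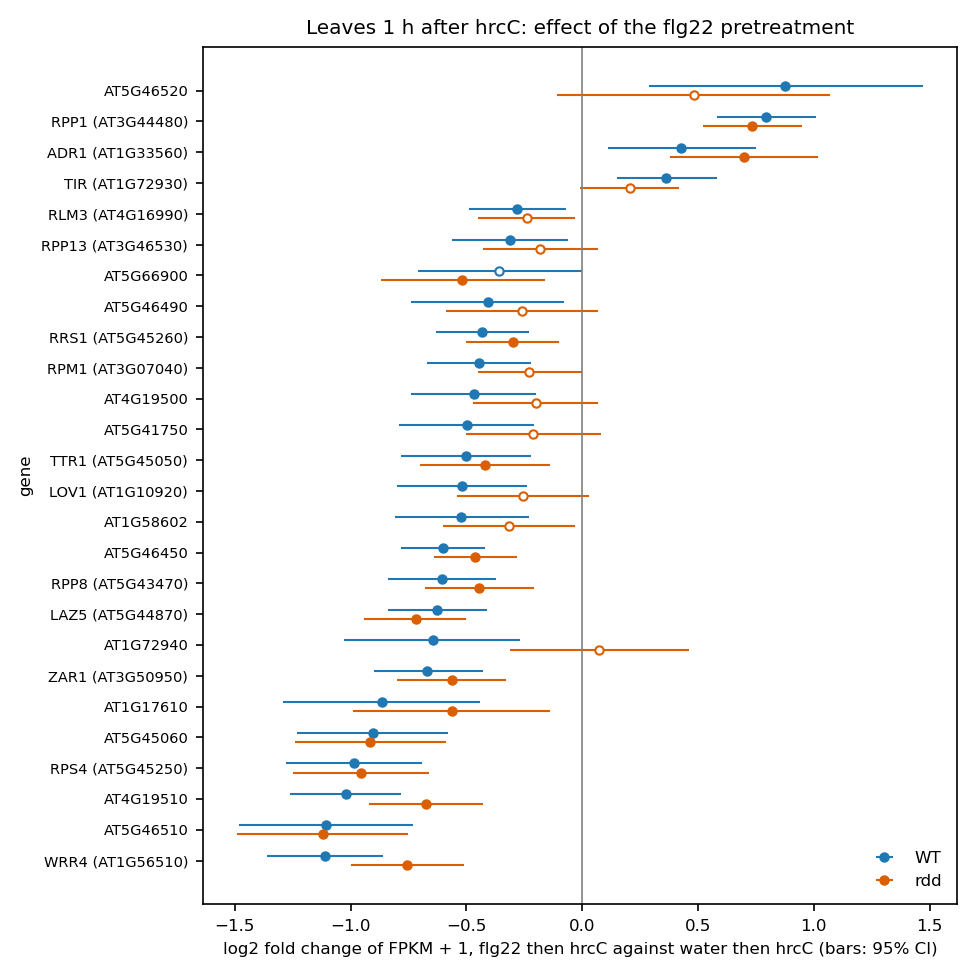
Log2 fold change of FPKM + 1 (horizontal axis) between leaves given flg22 then hrcC and leaves given water then hrcC, for receptor genes called in either genotype (1 not shown); points are estimates, bars 95% confidence intervals and filled points adjusted p under 0.05 (n = 2 per group). The lower calls run from WRR4 and AT5G46510 near -1.1 in WT to RLM3 at -0.28, and RPP1 and ADR1 are higher in both genotypes.

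The WT count of 26 changed genes was 17 without water library 2 and without flg22 library 1, and 14 without flg22 library 2. WRR4, AT5G46510, AT4G19510, RPS4, AT5G45060, AT1G17610, ZAR1, LAZ5, RPP8, AT5G46450, RRS1 and RPP1 kept their WT calls in each of these fits, while ADR1, AT5G46520 and TIR (AT1G72930) lost theirs in some. Of the 14 partner genes, 3 were lower and 2 higher in WT, where 23% of all genes were lower and 22.4% higher. The lower ones were the chaperone genes HSP90.1, SGT1A and HSP81-2, with HSP90.1 at 53.7 ± 0.615 FPKM after flg22 and hrcC and 175 ± 53.1 FPKM after water and hrcC (SD, n = 2). All 3 mesophyll markers were lower after flg22 in both genotypes, with sums between 6040 and 7590 FPKM against 16000 to 19400 FPKM in WT. The guard cell marker MYB60 was also lower after flg22, by -1.10 ± 0.12 in WT (adjusted p = 0.00035, limma) and -1.25 ± 0.12 in rdd (adjusted p = 0.00028). The phloem marker SUC2 was higher in WT, at 0.52 ± 0.14 (adjusted p = 0.017). The guard cell markers FMA and KAT1 did not pass in either genotype. The part of these markers in the receptor differences was not tested.

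Between genotypes, limma called 0 of the receptor genes in each of the 7 conditions. The shares of all genes below are, like that count, at an adjusted p under 0.05. Counts at an unadjusted p are given for the receptor genes only and cannot be set against those shares. In seedlings, 3, 0 and 7 of 43 genes had an unadjusted p under 0.05 at 0, 1 and 3 h, and 0.09%, 0.122% and 0.402% of all genes were called higher in rdd and 0.233%, 0.164% and 0.551% lower. In leaves after water and after flg22, 0 of 45 genes had an unadjusted p under 0.05 in either, and 0.022% and 0.0275% of all genes were called higher and 0.0661% and 0.143% lower. After water then hrcC and flg22 then hrcC, 9 and 4 genes had an unadjusted p under 0.05, and 0.641% and 1.46% of all genes were called higher and 0.304% and 0.624% lower. The 95% confidence intervals had a median half-width of 0.44 in seedlings, 0.64 in leaves and 0.29 in hrcC leaves on the log2 scale.

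TIR (AT1G72930) was the gene with the largest difference in seedlings at 0 h, with 4.43, 16.9 and 12.5 FPKM in rdd and 17.4, 22.2 and 28.6 FPKM in WT. Every rdd library was below every WT library, and the log2 difference of -1.09 ± 0.38 had an adjusted p of 0.49 in limma. At 3 h it measured 29.5, 29.7 and 58.2 FPKM in rdd and 67.7, 74.7 and 85.9 FPKM in WT, a difference of -1.01 ± 0.38 (adjusted p = 0.16). ADR1-L1 at 3 h measured 68.9, 66.4 and 74.3 FPKM in rdd and 107, 89.9 and 89.7 FPKM in WT, again without overlap, a difference of -0.44 ± 0.14 (adjusted p = 0.12). In all, 12 of 43 genes were lower in rdd without overlap at 3 h and 0 higher, where 15.6% of all genes were lower and 7.43% higher in that way. Without rdd 3 h library 2, which stood apart, 13 were lower and 0 higher, where 18.2% and 17.1% of all genes were, and limma again called 0. The medians were -0.27 for the receptor genes and -0.14 for all genes. Without rdd 3 h library 3, 1 receptor gene was called, TIR (AT1G72930) at -1.33 ± 0.40 (adjusted p = 0.048, limma). The summed root markers at 3 h ranged from 1070 to 1190 FPKM in rdd and from 687 to 869 FPKM in WT. Of them, AT4G12520 was called higher in rdd (1.575 ± 0.233, adjusted p = 0.0021, limma), and PYK10 and TIP2;3 did not pass. Of the mesophyll markers, CAB2 was called higher in rdd (1.128 ± 0.227, adjusted p = 0.025, limma), and RBCS1A and CA1 did not pass. The part of these markers in the receptor differences at 3 h was not tested. At 0 h, 2 genes were lower and 1 higher without overlap, where 3.75% and 9.21% of all genes were, and at 1 h 1 was lower and 8 higher, where 4% and 14.4% were. In leaves, 2 were lower and 0 higher after water, where 3.02% and 2.77% of all genes were, and 2 lower and 1 higher after flg22, where 2.58% and 4.7% were.

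In leaves given water then hrcC, ADR1 measured 6.19 and 4.93 FPKM in rdd and 10.3 and 9.79 FPKM in WT, a log2 difference of -0.76 ± 0.14 with the smallest adjusted p among the receptor genes (0.063, limma). AT1G72940 measured 5.44 and 4.48 FPKM in rdd and 9.15 and 9.86 FPKM in WT, a difference of -0.82 ± 0.16 (adjusted p = 0.085). There, 24 of 45 genes were lower in rdd without overlap and 1 higher, where 21.9% and 18.9% of all genes were. After flg22 then hrcC, 14 were lower and 7 higher, where 19.7% and 28.6% were. These groups hold 2 libraries each. Other genes differed between the genotypes in the same libraries. After water then hrcC, PR1, a salicylic acid response gene, was higher in rdd, at 230 ± 29.0 against 50.0 ± 3.6 FPKM (SD, n = 2; log2 difference 2.17 ± 0.18, adjusted p = 0.0023, limma), as was FRK1 (0.61 ± 0.10, adjusted p = 0.048). Of the 3 guard cell markers, FMA was higher at 25.5 ± 1.11 against 14.3 ± 1.19 FPKM (0.79 ± 0.11, adjusted p = 0.025) and MYB60 at 23.6 ± 1.61 against 12.2 ± 0.70 FPKM (0.90 ± 0.12, adjusted p = 0.02), while KAT1 did not pass. After flg22 then hrcC, MYB60 was the guard cell marker that passed (0.75 ± 0.12, adjusted p = 0.025). ROS1 (DML1) RNA was higher in rdd after water then hrcC (1.15 ± 0.14, adjusted p = 0.017, limma) and after flg22 then hrcC (1.03 ± 0.14, adjusted p = 0.016). The part of these differences in the receptor genes was not tested.

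**Figure D5:**
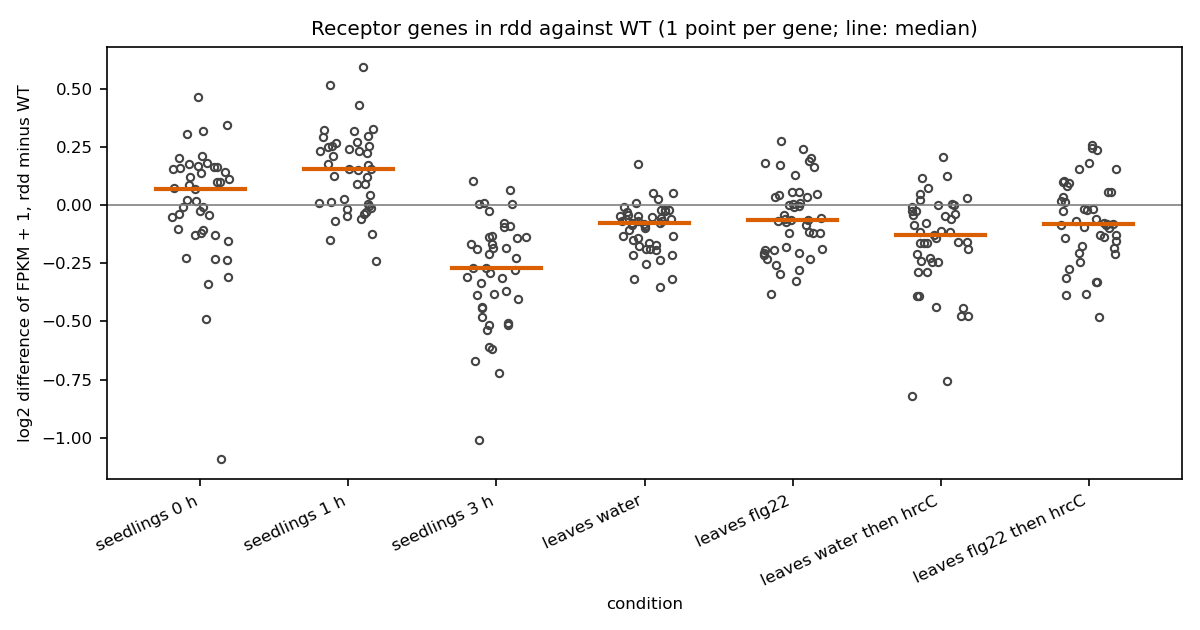
Log2 difference of FPKM + 1 between rdd and WT (vertical axis, rdd minus WT) for each tested receptor gene (points) in the 7 conditions, with the median as a line. Medians lie between -0.27 (seedlings at 3 h) and 0.15 (seedlings at 1 h), and none of the points passed an adjusted p under 0.05.

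The response itself was compared between genotypes with an interaction term. At 1 h, 3 h, 24 h in leaves and after hrcC, limma called 0 receptor genes, with 2, 5, 0 and 2 at an unadjusted p under 0.05. No share of all genes is given at an unadjusted p. At an adjusted p under 0.05, 0.0106% of all genes were called lower and 0 higher at 1 h. At 3 h, 0.00529% were lower and 0 higher. The share was 0 in leaves, and after hrcC 0.045% were lower and 0.0506% higher. The largest estimate was that of TIR (AT1G72930) at 1 h, 1.39 ± 0.54 more in rdd than in WT on the log2 scale (adjusted p = 1). The different counts of called genes in WT and rdd, such as 17 and 24 at 1 h or 17 and 8 at 3 h, are therefore not shown to differ.

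Several receptor genes sit next to each other, and RefSeq places no coding gene between the members of 7 such pairs. Over the 14 group means, RPS4 and its partner RRS1 had r = 0.95, TTR1 and AT5G45060 r = 0.94, and AT5G41740 and AT5G41750 r = 0.97. AT5G66900 and AT5G66910 had r = 0.70 and AT4G19500 and AT4G19510 r = 0.63. CSA1 and DAR4, which act as a pair, had r = 0.41, and TIR (AT1G72930) and AT1G72940 had r = -0.44. The median over all 990 pairs of the 45 genes was 0.80. Group means share tissue, age and library set, so these values describe the data only. Near-identical neighbours can also share reads, and how such reads were assigned is not given in the sources used here.

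In the cluster of RPP4, SNC1 and RPP5, 8 listed genes ranged in WT leaves after water from 0.24 FPKM for AT4G16920 to 174 FPKM for RLM3. Their summed mean in WT was 64.0 FPKM in seedlings at 0 h, 377 in leaves after water, 467 after flg22, 399 after water then hrcC and 347 after flg22 then hrcC. RLM3 made up 34.1, 174, 198, 248 and 204 FPKM of these sums, in the same order. The sums thus do not show the direction of the other genes. In the RPS6 and VICTR cluster, the sum of 5 genes was 13.5 FPKM in WT seedlings at 0 h, 30.5 at 1 h, 56.2 in leaves after water, 78.8 after flg22, 149 after water then hrcC and 109 after flg22 then hrcC. Within that cluster the gene with the highest mean changed from RPS6 in leaves without hrcC to AT5G46450 in leaves with it. AT5G46450 measured 60.4 and 62.8 FPKM after water then hrcC in WT, with 9.18, 8.30 and 18.3 FPKM after water alone.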

How the data were processed

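RNA-seq of 38 libraries was analysed. The authors deposited 1 table of all libraries and 1 file per library. They hold the same values. The authors made these FPKM values with tools that the submitters' processing notes list as HISAT2, featureCounts and DESeq2 on TAIR10, without versions. The FPKM unit was inferred, since no file header names one. Depth is unknown, so no counting interval is given.

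The 48 genes, the partner lists and the markers were chosen with earlier results of these data known. Symbols came from RefSeq (assembly TAIR10.1), which matched 32830 of 33597 IDs. Only names and neighbours were used.

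Values were tested as log2(FPKM + 1) with limma 3.58.1 in R 4.3.3 (trended, robust eBayes, 1 mean per group), separately for seedlings, leaves and leaves with hrcC, keeping genes that reached 1 FPKM in 3 or more libraries (2 with hrcC). Tests were two-sided, with Benjamini-Hochberg adjustment over all genes tested and calls at adjusted p under 0.05. Fold changes on this scale understate changes of low genes. The code was tested on simulated data.

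Genes named with values were the largest called changes in each direction (up to 6), the helpers, the neighbouring pairs, ZAR1, RPM1 and RPS2, the clusters by range, and the 3 highest and lowest by level. AT1G58602 and RPP4, RPP5 and SNC1 were singled out after their values were seen. Of the 48 genes, 1 is counted but not reported by name here. Same-numbered leaf libraries deviated together in all 18 pairs (median r 0.66), a sign from the data and not the labels. Of the 36 pairs with different numbers, 12 had r over 0.1, and their median r was -0.57. Alternatives were another pseudocount, no filter, median-ratio scaling, fewer groups in the fit, the replicate block and leaving out libraries.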

Additional observations from a re-analysis of the deposited data

How the results depend on the processing

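A pseudocount of 0.1, no filter and median-ratio scaling left all 21 counts of called receptor genes within 1.5 times. Median-ratio scaling brought the all-gene median from 0.13 to -0.01 for WT 3 h against 1 h, from -0.20 to -0.02 for the 3 h interaction and from 0.18 to 0.00 for rdd leaves (log2 scale), with receptor medians of -0.26, -0.15 and 0.42. The receptor median of rdd against WT at 0 h went from 0.07 to -0.01. Fitting only the compared groups gave 3 calls for rdd seedlings at 3 h (8 in the full fit), and 6 each for WT and rdd leaves (12 and 10). Leaving out 1 library gave 8 to 12 calls for WT 3 h against 1 h (14), 12 to 19 for rdd (19), 0 to 1 for rdd against WT at 3 h (0), 7 to 18 for WT leaves, 5 to 11 for rdd leaves and 14 to 19 for WT leaves with hrcC (26). No count or named gene reversed. The alternatives without the 4 libraries numbered 3, which gave 33 calls in WT and 39 in rdd leaves, and without the rdd 3 h library 2, which moved no count by over 1.5 times, were chosen after seeing the data, as were the comparisons of hrcC leaves with some of the water libraries, in which the WT count of genes at least 2-fold higher went from 23 to 13 against water library 3 alone.

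With the replicate block, calls rose to 22 in WT and 28 in rdd leaves, and no other count moved by over 1.5 times. In seedlings and hrcC leaves the numbers did not pair the libraries (median r 0 and -0.08).

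With 2 or 3 libraries per group and no read counts, small differences of low genes could not be resolved. Why counts moved was not tested.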
